A study of Mus musculus with 2 samples.

Results

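The 10 genes described here encode the constant regions of the T cell receptor (Trac, Trbc1, Trbc2, Trdc, Tcrg-C1, Tcrg-C2 and Tcrg-C4) and the CD3 subunits (Cd3e, Cd3d and Cd3g), chosen by symbol from the 32285 genes of the deposited count matrices. They were measured by droplet-based 3′ single-cell RNA sequencing in leukocytes sorted for CD45 from subcutaneous tumours of MFC cells, a mouse forestomach carcinoma line, grown in wild-type BALB/c mice. The treated library came from mice that received thonzonium bromide, a cationic surfactant, at 50 mg/kg every other day starting on day 6, with tumours taken on day 10, and the control library from mice that received PBS. The labels give neither the number of mice behind a library nor their age, both libraries carry the same protocol text, and the group was taken from the treatment label. With 1 library a group no difference between treated and control has a replicate check, no test was made, and every 95% interval below covers counting error only.

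A T cell recognises antigen through a receptor of either an alpha and a beta chain or a gamma and a delta chain. Each chain joins rearranged variable segments to a constant region, and the receptor reaches the cell surface together with the CD3 gamma, delta and epsilon subunits and the CD247 (zeta) chain, which carry the signal inward. NK cells carry no rearranged receptor, but transcripts of receptor constant genes without a rearranged variable segment are known in them. Reads from a 3′ library begin near the end of the transcript, so the counts below do not tell rearranged from unrearranged transcripts.

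In the GRCm38 build the delta and alpha constant genes are neighbours on chromosome 14, Trdc at chr14:54142851-54148868 and Trac at chr14:54220521-54224206, 71652 bases apart. Trbc1 (chr6:41538218-41539881) and Trbc2 (chr6:41546730-41548352) lie 6848 bases apart and are used as alternatives by a rearranged beta chain. The gamma constants are at chr13:19214103-19217024 (Tcrg-C1), chr13:19304649-19307551 (Tcrg-C2, reverse strand) and chr13:19344558-19352756 (Tcrg-C4). The CD3 genes sit side by side on chromosome 9, Cd3g at chr9:44969572-44980431, Cd3d at chr9:44981786-44987339 and Cd3e at chr9:44998740-45009627, with Cd3g and Cd3e on the reverse strand. Cd3g and Cd3d start 1354 bases apart and are transcribed away from each other, while Cd3d and Cd3e are separated by 11400 bases.

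How far the near-identical constant genes can be told apart decides which of their counts can be compared. The coding parts of Trbc1 and Trbc2 (GENCODE vM21) were 95.6% identical, with 23 of 518 bases different, and their first coding exon of 375 bases held 1 difference. The differences cluster in the third coding exon, shown here because it carries most of what separates the pair before the stop codon, with the 15 bases that differ in capitals (Trbc1 at chr6:41539229-41539335, Trbc2 at chr6:41547772-41547878, both forward strand).
Trbc1: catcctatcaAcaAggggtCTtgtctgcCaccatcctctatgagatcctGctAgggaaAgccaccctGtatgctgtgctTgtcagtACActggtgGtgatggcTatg
Trbc2: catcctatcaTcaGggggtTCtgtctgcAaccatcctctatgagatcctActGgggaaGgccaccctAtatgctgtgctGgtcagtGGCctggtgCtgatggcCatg
After the stop codon, where 3′ reads would concentrate, the pair was 63.8% identical and none of 170 windows of 50 bases was shared. In the coding part 60.3% of 469 such windows were shared. Reads of Trbc1 and Trbc2 from beyond the stop codon can thus be assigned, while many from the coding part cannot. Where the reads fell was not examined, so the split of Trbc1 and Trbc2 rests on their 3′ position.

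Beyond the stop codon, the gamma constants Tcrg-C1 and Tcrg-C2 are less easily separated than the beta pair. The first 150 coding bases of each are shown, with capitals in Tcrg-C2 and Tcrg-C4 marking bases that differ from Tcrg-C1 (4 and 15 bases), at chr13:19214103-19214252 for Tcrg-C1, chr13:19307402-19307551 on the reverse strand for Tcrg-C2 and chr13:19344558-19344707 for Tcrg-C4.
Tcrg-C1: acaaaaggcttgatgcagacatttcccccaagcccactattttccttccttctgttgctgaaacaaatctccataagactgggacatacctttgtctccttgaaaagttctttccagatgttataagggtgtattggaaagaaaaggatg
Tcrg-C2: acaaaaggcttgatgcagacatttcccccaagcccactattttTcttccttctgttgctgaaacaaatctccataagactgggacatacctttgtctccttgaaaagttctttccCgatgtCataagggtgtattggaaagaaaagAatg
Tcrg-C4: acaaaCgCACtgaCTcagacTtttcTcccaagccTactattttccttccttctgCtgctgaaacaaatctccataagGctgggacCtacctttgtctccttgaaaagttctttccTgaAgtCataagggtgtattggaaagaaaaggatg
Over the whole coding part Tcrg-C1 and Tcrg-C2 were 97.4% identical, with 13 bases different. Beyond the stop codon they were 94.4% identical and shared 25.3% of 360 windows of 50 bases, so the split of their reads is uncertain. Tcrg-C4 was 77.3% identical to Tcrg-C1 in the coding part and shared no such window with it.

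After filtering, 5833 treated and 6419 control cells remained, with median depths of 7259 and 4300.0 unique molecular identifiers (UMIs) per cell. The 10 genes held 80882 of 50871432 treated UMIs (0.159%) and 66510 of 44148296 control UMIs (0.151%). A UMI of Ptprc, which encodes CD45, was found in 95.4% of treated and 88.2% of control cells, and in 98.9% and 97.0% of cells in the T cell gates. Erythroid-gated barcodes, 38 treated and 555 control, had a Ptprc UMI in 18.4% and 44.5%, and haemoglobin genes took 0.0164% of treated and 0.101% of control UMIs in the T cell gates. The libraries shared 14 barcode sequences, of which 1 treated and 2 control cells fell in a T or NK gate.

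Cells were grouped by marker genes other than the 10 members. The T cell gates were regulatory T cells with Foxp3 (Treg, 118 treated and 285 control cells), CD8 T cells with Cd8b1 (513 and 439), CD4 conventional T cells with Cd4 and a pan-T gene (74 and 124), an IL-17 gate with at least 2 genes of a list that includes Il17a, Il17f, Il23r, Cd163l1 and Sox13 (35 and 16), and T cells with at least 2 pan-T genes but no detected coreceptor (168 and 183). The IL-17 gate also left out cells with Foxp3, Cd4, Cd8b1 or Ncr1. The T cell gates together held 908 treated cells (15.6%) and 1047 control cells (16.3%). The NK gate required Ncr1, which encodes the NK receptor NKp46, and no UMI of Cd5, Cd6, Cd28, Cd4, Cd8a, Cd8b1 or Foxp3. It held 588 treated (10.1%) and 616 control cells (9.60%). The pan-T genes Bcl11b and Trat1 were not excluded from it. Cells with both Ncr1 and at least 2 pan-T genes formed a further gate (Ncr1 T, 76 and 90 cells). A cell with Ncr1, Bcl11b and Trat1 could fall in both it and the NK gate.

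The T gates were checked with the members themselves. A UMI of at least 1 CD3 gene was missing in 24 treated (2.64%) and 73 control T-gated cells (6.97%), whose median depths were 1038 and 1069 UMIs against 6288 and 4888 in the other T-gated cells. T-gated cells without CD3 were therefore shallow in both libraries. As background, B cell-gated cells held 9.43 treated and 18.9 control CPM of Trac (UMIs of the gene per 1000000 UMIs of the gate), 29.7 and 46.3 CPM of Cd3d, and 82.0 and 87.3 CPM of Trbc1.

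Trac, the alpha constant, was highest in Tregs, intermediate in CD4 conventional and CD8 T cells, lower in T cells with no detected coreceptor, and lowest in the IL-17 gate. Tregs held 1234 CPM (1142 to 1332) in the treated and 977 CPM (920.1 to 1037) in the control library, and CD4 conventional T cells held 798 (702 to 904) and 739 (664 to 821). CD8 T cells held 733 CPM (708 to 758) in treated and 451 CPM (431 to 472) in control, so the intervals of CD8 and CD4 conventional T cells overlapped in the treated but not in the control library. T cells with no detected coreceptor held 393 CPM (358 to 429.9) in treated and 399.8 CPM (362 to 441) in control, close to the control CD8 level. The IL-17 gate held 153 CPM (104 to 215) in treated and 126 CPM (50.6 to 259) in control, and NK cells 20.7 and 18.8 CPM, which in control was close to the B cell background.

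The beta constants did not follow the same order. Trbc2 held 1742 CPM (1704 to 1781) in treated and 1125 CPM (1092 to 1158) in control CD8 T cells, and was lower in Tregs at 806 and 752 CPM. In treated, CD8 T cells had the highest Trbc2 level of the T gates, though the interval of CD4 conventional T cells (1603 CPM, 1466 to 1749.8) overlapped theirs. T cells with no detected coreceptor (1339 CPM) and the IL-17 gate (720.0 CPM) were lower. In control, CD4 conventional T cells held 1161 CPM (1066 to 1262) and T cells with no detected coreceptor 1161 CPM (1095 to 1229). The control IL-17 gate held 1203 CPM (933 to 1528). These control values were above the CD8 level, but all their intervals overlapped its interval. Trbc1 was at 759 treated and 602 control CPM in CD8 T cells, 626 and 553 CPM in Tregs, and 773 and 956 CPM in CD4 conventional T cells. Trac therefore made up 46.3% of treated and 42.8% of control alpha and beta constant UMIs in Tregs, but 22.7% and 20.7% in CD8 T cells and 25.2% and 25.9% in CD4 conventional T cells. A 3′ UMI stands for 1 transcript whatever the gene's length, though capture can differ between genes, so this comparison of genes uses counts that are not scaled by length.

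**Figure D1:**
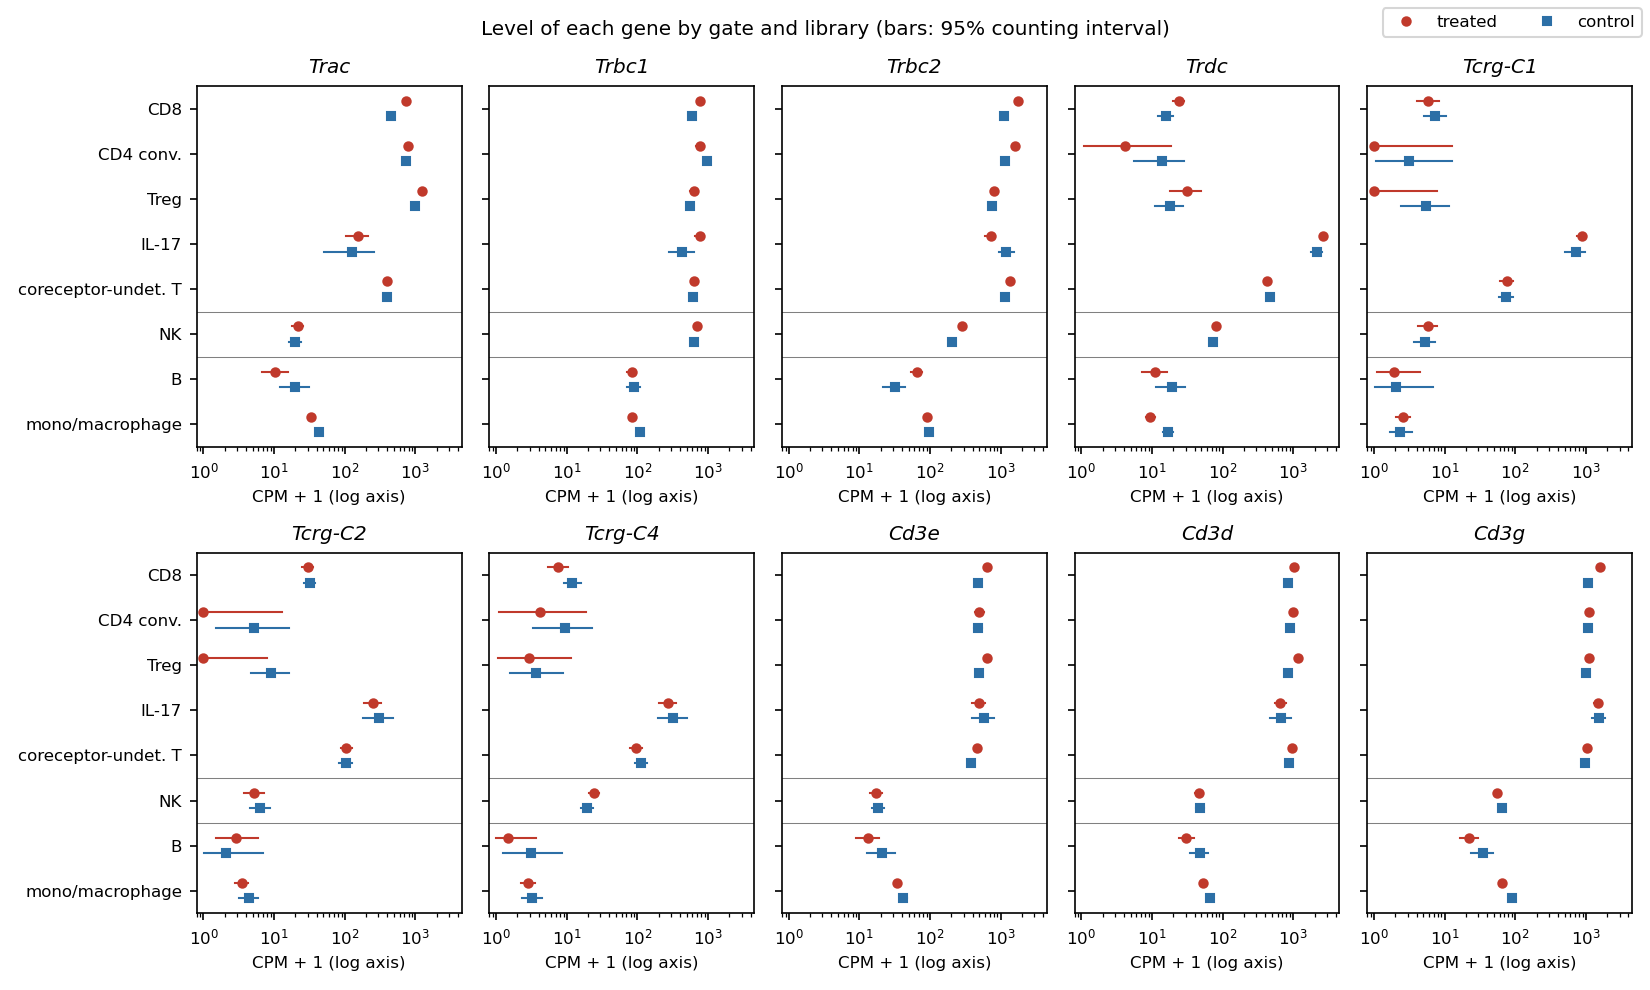
Level of each of the 10 genes in each gate, 1 panel a gene, on a logarithmic axis of CPM plus 1, with points for the treated and control library and bars for the exact Poisson 95% counting interval. Trac and the CD3 genes stand high in the T gates and low in NK and background gates, Trbc1 is nearly as high in NK cells (693 treated and 623 control CPM) as in T cells, and Trdc and Tcrg-C1 peak in the IL-17 gate.

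Trbc1 made up a minority of beta constant UMIs in most T gates and a majority in NK cells. Its share was 31.8% in treated and 36.6% in control T-gated cells, and 71.2% and 75.5% in NK cells. The IL-17 gate had 51.4% in treated and 26.4% in control, from 35 and 16 cells. In CD4 conventional T cells the share was 32.5% in treated and 45.2% in control, while in Tregs the libraries were close, at 43.7% and 42.4%.

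Cell by cell, the beta constants were split differently in CD8 T and NK cells. Among cells with at least 10 beta constant UMIs, Trbc1 made up under 10% in 30.4% of 405 treated and 34.9% of 261 control CD8 T cells, and over 90% in 0.494% and 1.53%. In NK cells the extremes were turned round: under 10% in 2.05% of 244 treated and 1.23% of 163 control cells, and over 90% in 32.4% and 41.1%. Most of the cells with at least 10 beta constant UMIs lay between these limits, 69.1% of treated and 63.6% of control CD8 T cells and 65.6% and 57.7% of NK cells. Over the whole NK gate, a Trbc2 UMI was found in 46.1% of treated and 40.6% of control cells. Median Trbc1 shares were 20.5% treated and 23.8% control in CD8 T cells, against 67.9% and 76.9% in NK cells.

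**Figure D2:**
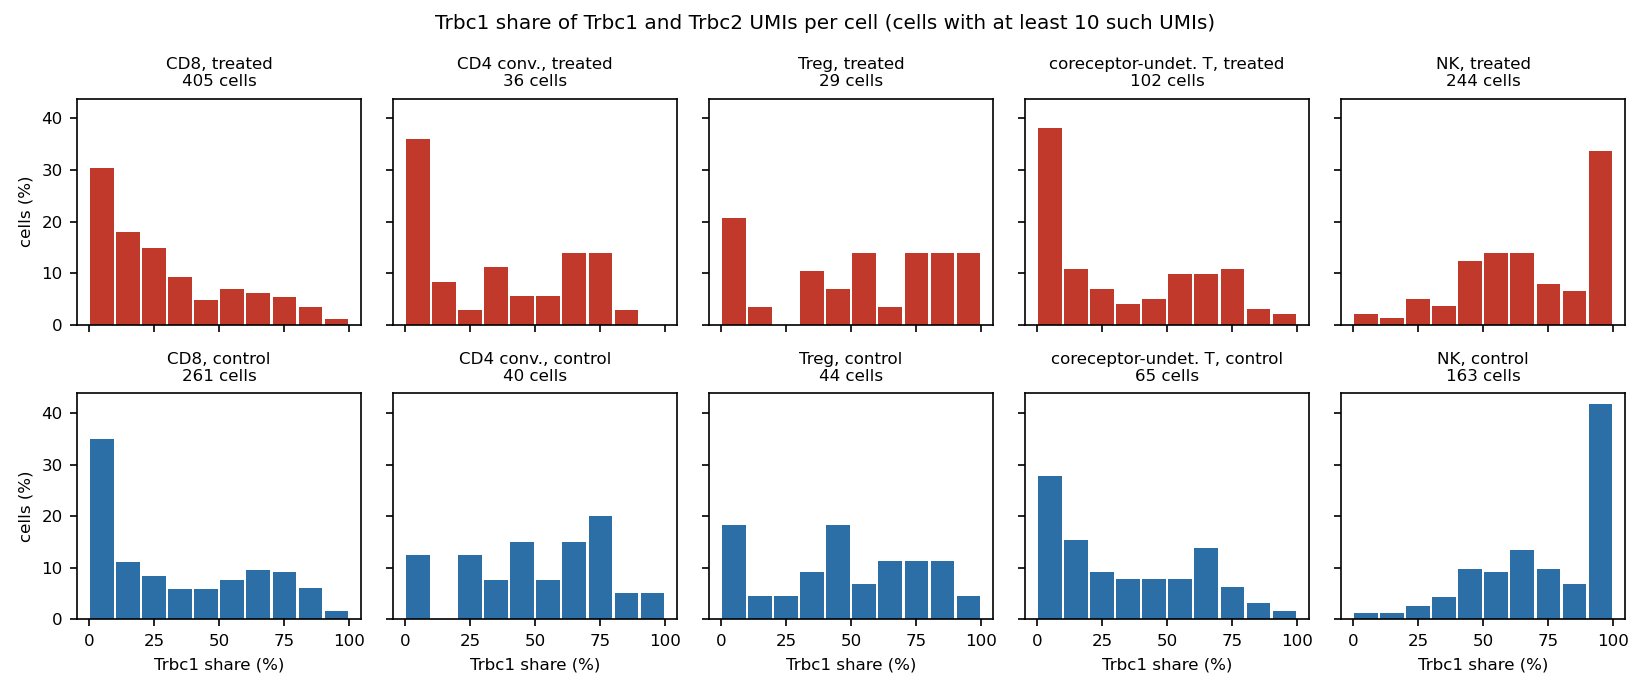
Distribution over cells of the Trbc1 share (%) of Trbc1 and Trbc2 UMIs, in cells with at least 10 such UMIs, by gate and library, with bars for the percent of cells in each 10-point bin. CD8 T cells pile up at the lowest shares (30.4% of treated and 34.9% of control cells under 10%) and NK cells at the highest (32.4% and 41.1% over 90%).

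Trdc, the delta constant, peaked in the IL-17 gate, whose defining genes mark IL-17-producing lymphocytes, many of them gamma-delta T cells in mice. This gate also left out cells with Foxp3, Cd4 or Cd8b1, so a high gamma and delta level there was partly set by its definition. Trdc held 2618 CPM (2403 to 2846) in this gate in treated and 2156 CPM (1787 to 2577) in control. T cells with no detected coreceptor followed at 423 treated and 465 control CPM, then NK cells at 80.9 (73.8 to 88.5) and 72.1 CPM (65.1 to 79.6). CD8 T cells held 22.9 treated and 14.7 control CPM, Tregs 30.1 and 17, and CD4 conventional T cells 3.19 and 12.7 CPM. The background in B cells was 9.90 treated and 17.9 control CPM, so control levels in CD8 T cells, Tregs and CD4 conventional T cells lay at or under it. This background was uneven, as 1 B-gated cell in each library held 66.7% of its treated and 58.8% of its control Trdc UMIs.

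The share of gamma and delta among all receptor constant UMIs separated the gates in the same way in both libraries. It was 71.0% in treated and 66.6% in control IL-17-gated cells, and 22.8% and 25.7% in T cells with no detected coreceptor. In CD8 T cells it was 1.91% and 2.80%, in Tregs 1.18% and 1.39%, and in CD4 conventional T cells 0.201% and 0.952%. NK cells stood between, at 10.2% treated and 10.6% control.

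Per cell, the share lay in mostly separate ranges in the IL-17 gate and in CD8 T cells, while T cells with no detected coreceptor were a mixture. Among cells with at least 10 constant UMIs, gamma and delta made up at least 50% in 28 of 34 treated and 8 of 9 control IL-17-gated cells, with median shares of 77.3% and 60.0%. In CD8 T cells the same was true of 0 of 451 treated cells, which allows a share of up to 0.665%, and of 1 of 311 control cells. T cells with no detected coreceptor had 22 of 131 treated and 21 of 104 control cells at or above 50%, while 58.0% and 54.8% lay under 10%. NK cells rarely reached 50%, in 9 of 275 treated and 8 of 194 control cells, and 69.1% and 68.0% of them were under 10%.

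**Figure D3:**
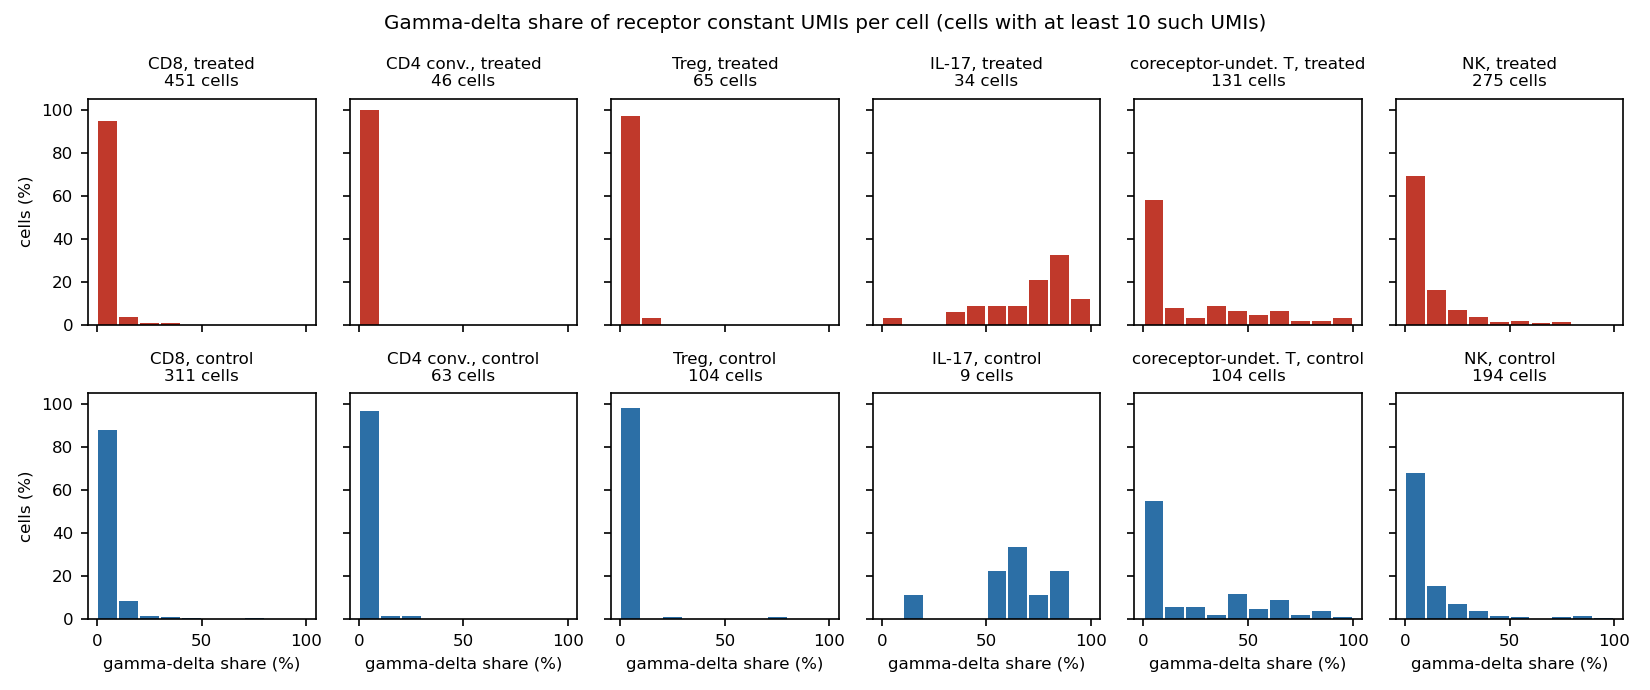
Distribution over cells of the gamma-delta share (%) of receptor constant UMIs, in cells with at least 10 such UMIs, by gate and library, with bars for the percent of cells in each 10-point bin. IL-17-gated cells lie mostly at or above 50% (28 of 34 treated and 8 of 9 control cells) and CD8 T cells mostly under 10% (94.9% and 88.1%), with T cells that lack a detected coreceptor in both ranges.

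Many cells with Trdc also held Trac, though a smaller share than among all T-gated cells, while few cells with Trac held Trdc. Over the T gates, 43 of 91 treated (47.3%) and 48 of 94 control (51.1%) cells with Trdc also had Trac, which was 5.46% and 6.00% of the cells with Trac. Of all T-gated cells, 86.8% of treated and 76.4% of control had Trac, and 10.0% and 8.98% had Trdc. In CD8 T cells Trac without Trdc was found in 472 treated and 329 control cells and both in 10 and 16, which was 83.3% of 12 treated and 76.2% of 21 control cells with Trdc. Trac was found in 94.0% of all treated and 78.6% of all control CD8 T cells. IL-17-gated cells held Trdc alone in 19 treated and 13 control cells, both transcripts in 13 and 1, and Trac alone in 2 and 1. T cells with no detected coreceptor held Trac alone in 106 and 104 cells, Trdc alone in 26 and 25, both in 14 and 20, and neither in 22 and 34. In that gate the Trdc signal was concentrated: 34 treated and 30 control cells with at least 5 Trdc UMIs held 96.4% and 94.0% of it. In NK cells it was spread thin, with 26.8% and 30.8% in the 16 and 15 cells that reached 5 UMIs and a median of 1 UMI per positive cell in both libraries.

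Tcrg-C1 led the gamma constants in the IL-17 gate, while Tcrg-C2 and Tcrg-C4 led elsewhere. In the IL-17 gate Tcrg-C1 held 873 CPM in treated and 719 CPM in control, which was 62.9% of 291 treated and 53.3% of 75 control gamma constant UMIs. T cells with no detected coreceptor spread their gamma UMIs over the 3 genes, with Tcrg-C1 at 27.1% treated and 25.8% control, Tcrg-C2 at 38.1% and 35.4%, and Tcrg-C4 at 34.8% and 38.8%. In CD8 T cells Tcrg-C2 made up 71.7% of 184 treated and 64.0% of 197 control gamma UMIs. Reads of Tcrg-C1 and Tcrg-C2 may be split uncertainly, as their sequences above show, so the values of Tcrg-C4 are the more secure.

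Gamma constants were scarce in Tregs and CD4 conventional T cells, but not in CD8 T cells. CD8 T cells held 40.1 treated and 48.1 control CPM of the 3 genes together, found in 11.7% and 12.5% of cells, against 32.1 and 27.9 CPM in NK cells and 3.30 and 4.21 CPM in B cells. Treated Tregs and treated CD4 conventional T cells had no UMI of Tcrg-C1 or Tcrg-C2, which allows up to 5.64 CPM in Tregs and 9.58 CPM in CD4 conventional T cells, and control cells of these gates had between 1 and 9 UMIs of each. T cells with at least 2 UMIs of Klra genes (Ly49 receptors, 106 treated and 172 control cells) had a gamma-delta share of 14.3% treated and 10.2% control, with Tcrg-C2 at 45.4% of 218 and 51.5% of 233 gamma UMIs. Variable segments were counted in T-gated and Ncr1 T cells with only 1 gamma variable segment detected. Among these, Tcrg-V6 was found in 16 treated cells and 1 control cell, Tcrg-V1 in 25 and 14, and Tcrg-V4 in 15 and 7. The 16 treated Tcrg-V6 cells held 81 UMIs of Tcrg-C1, 23 of Tcrg-C2, 27 of Tcrg-C4 and 251 of Trdc. Tcrg-C3, a further gamma constant gene outside the 10, had 2 treated and 1 control UMIs in all T gates.

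**Figure D4:**
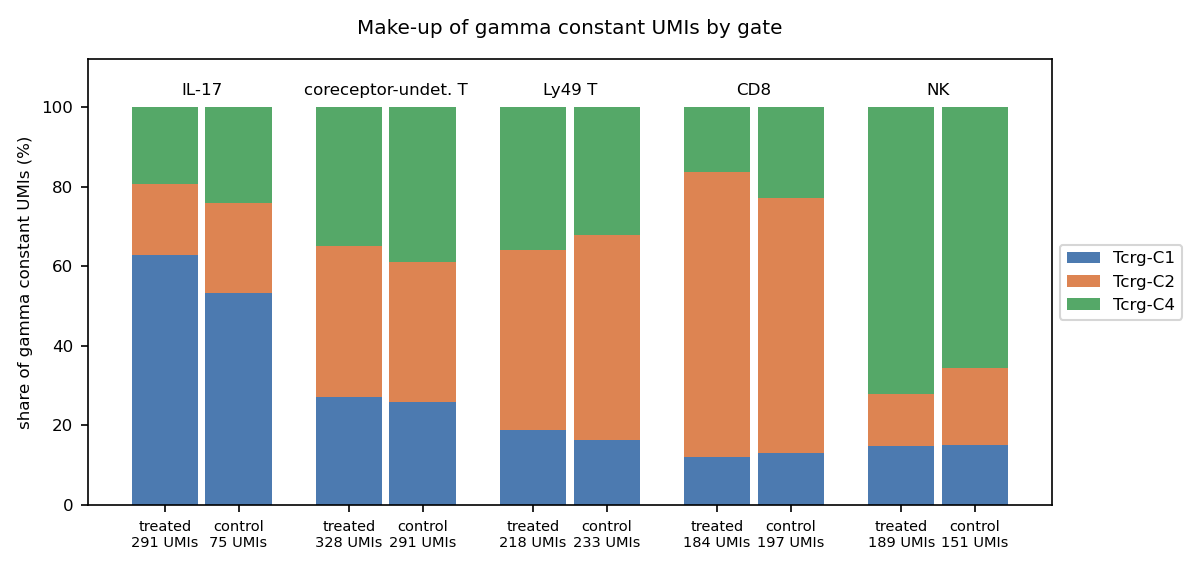
Share (%) of Tcrg-C1, Tcrg-C2 and Tcrg-C4 in the gamma constant UMIs of each gate, as stacked bars for the treated and the control library side by side, with the number of UMIs under each bar. Tcrg-C1 is the largest part in the IL-17 gate (62.9% treated and 53.3% control) and Tcrg-C4 in NK cells (72.0% and 65.6%).

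The CD3 genes were high in every T gate and low in NK cells. Cd3d, the delta subunit, ranged over the 5 T gates between 658 and 1165 CPM in treated and between 665 and 912 CPM in control, and held 45.5 and 46.8 CPM in NK cells. Cd3e, the epsilon subunit, which pairs with both of the others, held 606 treated and 465 control CPM in T-gated cells and 16.1 and 17.4 in NK cells. Cd3g, the gamma subunit, held 1408 and 1044 CPM in T-gated cells and 54.8 and 64.5 in NK cells. Cd3e was lower in NK cells than in the monocyte/macrophage gate, where it held 33.1 treated and 41.1 control CPM. A Cd3d UMI was found in 10.5% of treated and 13.5% of control NK cells. With so few positive cells, the 10% of cells with the most had to hold nearly all Cd3d UMIs (98.9% and 91.7%).

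The balance of CD3 subunits differed between gates. The ratio of Cd3g to Cd3d UMIs was 2.25 (1.84 to 2.77) in treated and 2.27 (1.52 to 3.44) in control IL-17-gated cells. In CD8 T cells it was 1.52 (1.47 to 1.58) in treated and 1.27 (1.21 to 1.33) in control, and in Tregs 0.950 (0.847 to 1.07) and 1.21 (1.10 to 1.32). The IL-17 gate thus had the highest ratio of the 5 T gates in both libraries, and treated lay above control in CD8 T cells and below it in Tregs. Cd3e varied less, between 18.5% and 22.2% of treated and 17.2% and 21.1% of control CD3 UMIs over the 5 T gates. CD3 UMIs were 1.01 times the alpha and beta constant UMIs in treated and 1.05 times in control T-gated cells, 1.61 and 1.56 times in the IL-17 gate, and 0.117 and 0.152 times in NK cells.

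Cd3g and Cd3d share the short interval between their starts, and the 250 bases before each start (RefSeq, GRCm38.p6) are shown as neighbours that are transcribed apart and whose levels were followed together above. Capitals mark a match to GGAAGT, an ETS-type motif, on either strand (Cd3g at chr9:44980432-44980681, reverse strand, and Cd3d at chr9:44981536-44981785, forward strand).
Cd3g: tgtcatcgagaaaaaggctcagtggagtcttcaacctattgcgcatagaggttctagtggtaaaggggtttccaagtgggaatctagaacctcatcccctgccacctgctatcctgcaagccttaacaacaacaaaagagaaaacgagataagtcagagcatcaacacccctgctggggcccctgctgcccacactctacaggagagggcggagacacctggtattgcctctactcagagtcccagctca
Cd3d: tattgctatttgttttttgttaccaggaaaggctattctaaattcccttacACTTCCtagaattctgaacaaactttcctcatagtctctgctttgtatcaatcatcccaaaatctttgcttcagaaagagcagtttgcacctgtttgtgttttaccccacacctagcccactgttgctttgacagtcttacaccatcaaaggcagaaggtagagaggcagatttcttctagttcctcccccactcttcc
Cd3d and Cd3e had 1 match each and Cd3g had 0, and 19.7% of 32851 promoter windows of the same length held the motif. TGTGGT (RUNX-type, found in 14.0% of windows) and CAGCTG (E-box, 13.0%), also searched on both strands, were in none of the CD3 windows, so no match overlapped another. Of the 10 members, 3 were matched in the promoter table.

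NK cells held Trbc1, Trbc2, Trdc and Tcrg-C4 well above the B cell background, and little Trac or CD3. Trbc1 stood at 693 CPM (672 to 714) in treated and 623 CPM (602 to 645) in control NK cells, Trbc2 at 279 and 202 CPM, and Tcrg-C4 at 23.1 and 18.3 CPM, against 0.472 and 2.10 CPM of Tcrg-C4 in B cells. A Trbc1 UMI was found in 94.2% of treated and 85.6% of control NK cells, at median depths of 7865 and 6824 UMIs, and in 9.73% and 18.2% of B cells, at 3680.0 and 3841 UMIs. With each cell thinned to 1000 UMIs, the NK share was 47.8% in both libraries and the B cell share 3.81% in treated and 4.37% in control. A Trdc UMI was found in 38.9% of treated and 30.4% of control NK cells against 1.48% and 3.35% of B cells, and after thinning in 8.70% and 6.70% of NK cells against 0.636% and 0.971% of B cells. Each of these shares was thus higher in NK than in B cells at equal depth. The monocyte/macrophage gate, with 83.3 treated and 107 control CPM of Trbc1 and 8.52 and 15.8 CPM of Trdc, also lay below NK cells.

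The pattern was also present in NK cells with no detected Trac or CD3 transcript. In the 439 treated and 415 control NK-gated cells without a UMI of Trac or of any CD3 gene, a subset chosen after values had been seen, Trbc1 held 701 CPM (676 to 727) in treated and 604 CPM (578 to 631) in control. Trdc held 66.7 CPM (59.2 to 75.0) in treated and 60.2 CPM (52.0 to 69.2) in control, and was found in 36.9% and 27.7% of these cells. Tcrg-C4 was 76 of 77 treated gamma constant UMIs (98.7%, Clopper-Pearson 93.0 to 100.0) and 40 of 45 control UMIs (88.9%, 75.9 to 96.3), so Tcrg-C1 and Tcrg-C2 were nearly undetected there. No such cell with at least 10 beta constant UMIs had under 10% Trbc1, of 162 treated and 93 control cells, which allows up to 1.85% and 3.23%.

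Ncr1 T cells lay between NK and T cells in Trac, in the CD3 genes and in the Trbc1 share, but at or above both in Tcrg-C4 and Trbc1. They held 293 treated and 209.9 control CPM of Trac, a Trbc1 share of 50.8% and 56.3%, and 791 and 704 CPM of Trbc1. Their Tcrg-C4 level was 63.7 treated and 29.0 control CPM, against 29.5 and 27.1 CPM in the T gates, and Tcrg-C4 made up 52.6% and 45.2% of their gamma constant UMIs. Their CD3 UMIs were 0.742 times the alpha and beta constant UMIs in treated and 0.704 times in control, below the 1.01 and 1.05 times of the T gates. Doublets of an NK and a T cell could pass this gate, and their part was not tested: median depths were 12624 treated and 9068 control UMIs, above those of NK cells.

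The treated and control libraries were then compared within the gates, which asks how the transcripts stood in tumours of mice given thonzonium bromide. Over all T-gated cells, each of the 10 genes was higher in treated than in control, by 1.09 to 1.97 times, though for Tcrg-C4 (1.09, 0.887 to 1.34) the interval included 1 and a requirement of 2 UMIs per gate marker gave 0.868. The alpha and beta constants together held 2986 CPM in treated and 2239 CPM in control, a ratio of 1.33 (1.31 to 1.36). The CD3 genes held 3027 and 2355 CPM, a ratio of 1.29 (1.26 to 1.31), and the gamma and delta constants 289.5 and 187 CPM, a ratio of 1.55 (1.44 to 1.66). A ratio of 1.5-fold or more with at least 50 UMIs over both libraries was reached by Trdc (172 and 100.0 CPM, 1.72) and Tcrg-C1 (42.9 and 21.8 CPM, 1.97), that is 2 of the 10 genes in the upward direction, where 1.80% of 9920 genes did so, and by 0 members downward, where 7.39% did. The median log2 ratio was 0.36 over the members and -0.09 over all these genes.

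The make-up of the T gates differed between the libraries. CD8 T cells were 56.5% of treated and 41.9% of control T-gated cells, Tregs 13.0% and 27.2%, and IL-17-gated cells 3.85% and 1.53%. Giving each gate the same weight in both libraries was an alternative chosen after the data had been seen. The gamma-delta ratio was then 1.00, Trdc was at 1.07 and Tcrg-C1 at 1.06, whereas the alpha-beta ratio was 1.29 and the CD3 ratio 1.25. The higher summed gamma and delta level of treated T cells was thus not seen at equal gate weights. Tcrg-C2 (0.905) and Tcrg-C4 (0.793) were then lower in treated, while most of the alpha-beta and CD3 difference remained. The weighted ratios are given without intervals and include a control IL-17 gate of 16 cells. The part of gate make-up in the ratios was not tested.

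Within CD8 T cells the alpha-beta constants and CD3 genes were higher in the treated library. Trac had a ratio of 1.62, Trbc2 of 1.55, Cd3g of 1.47 (1561 and 1060.5 CPM), Cd3e of 1.37 (650.2 and 474 CPM), Trbc1 of 1.26 and Cd3d of 1.22 (1025 and 837 CPM). Of 9 members with at least 50 UMIs, Trac, Trbc2 and Trdc (1.56, 1.12 to 2.18) were 1.5-fold or more higher, where 3.62% of 8950 genes were, and Tcrg-C4 was lower at 0.594 (0.361 to 0.963), where 9.11% were. The Trdc ratio rested on few cells: 6 treated cells held 91.4% of the treated UMIs, and a Trdc UMI was found in 12 treated (2.34%) against 21 control cells (4.78%). The summed alpha-beta ratio was 1.48 and the CD3 ratio 1.36, against 1.00 for gamma and delta. Median depth was close in the gate, 7569 treated and 7484 control UMIs.

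CD8 T cells with Gzmk, a granzyme gene of effector and memory CD8 T cells, were 225 treated and 21 control cells, 24.8% and 2.01% of T-gated cells. They held 2373 treated and 1596 control CPM of Trbc2 (ratio 1.49), 741 and 1083 CPM of Trbc1 (0.685), and 2131 and 1596 CPM of Cd3g (1.34), and 0 of their 6 measured members reached 1.5-fold, where 16.9% of 4662 genes were higher and 13.2% lower. The control Trbc1 value came from 21 cells, of which the 10% with the most held 56.8% of 192 UMIs. T cells with the beta segment Trbv13-1 were 56 treated and 11 control cells and held 2934 and 1073 CPM of Trbc2 against 1000.3 and 1184 CPM of Trbc1, so a Trbc1 share of 25.4% in treated and 52.5% in control. Without these 2 groups, an alternative chosen after the values had been seen, the CD8 ratios were 1.27 for alpha-beta and 1.14 for CD3, and the T-gate ratios 1.17 and 1.13. The same step put the T-gate gamma-delta ratio at 2.01, and the Trbc1 share of beta constants in the T gates at 36.1% in treated and 36.2% in control.

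In the other T gates few members reached the 1.5-fold limit. In Tregs 0 of 6 measured members did, where 5.17% of 4701 genes were higher and 7.36% lower, and all 6 were above 1, between 1.07 for Trbc2 and 1.38 for Cd3d. In CD4 conventional T cells 0 of 6 did, where 5.39% of 2447 genes were higher and 17.2% lower, with Trbc1 at 0.808 and Trbc2 at 1.38. In the IL-17 gate Trbc1 was higher at 1.77 (1.15 to 2.84) and Trbc2 lower at 0.598 (0.446 to 0.810), so 1 of 9 members each way, where 12.2% of 793 genes were higher and 7.06% lower. T cells with no detected coreceptor had 0 of 10, where 2.07% of 5416 genes were higher and 8.29% lower, with Trdc at 0.909 and Cd3e at 1.23 (466 and 380.0 CPM). In Tregs the sums of alpha-beta (1.17, 1.09 to 1.25) and CD3 (1.24, 1.16 to 1.32) lay above 1, as in CD8 T cells. The Treg intervals of Trbc1, Trbc2 and Cd3g included 1. The alpha-beta sum was also above 1 in CD4 conventional T cells (1.11, 1.02 to 1.21) and T cells with no detected coreceptor (1.09, 1.03 to 1.15). It was at 0.929 (0.740 to 1.18) in the IL-17 gate. Differences in size between gates were not tested.

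In smaller groups that cut across the gates, several gamma or delta constants were higher in the treated library, though not all. Ly49 T cells held 159 treated and 82.9 control CPM of Trdc (1.92), and Trdc, Tcrg-C1 (1.68) and Tcrg-C4 (1.62) were 3 of 10 members at 1.5-fold or more, where 2.90% of 6628 genes were higher and 8.22% lower. The Trdc ratio of Ly49 T cells rested on 16 treated and 20 control cells with Trdc. Of these, the 13 and 11 cells with at least 5 UMIs held 96.9% and 88.0% of the Trdc UMIs. Ncr1 T cells held 63.7 and 29.0 CPM of Tcrg-C4 (2.20), and 2 of 9 members, Tcrg-C4 and Tcrg-C2 (1.84), were past the limit, where 3.48% of 5140 genes were higher and 8.27% lower, while their Trdc was at 1.01 (145 and 143 CPM, 0.802 to 1.28). Cycling T cells, with Mki67 or Top2a, had a gamma-delta ratio of 1.19 (236 and 199 CPM). T cells with both Lef1 and Dapl1, a naive-like group of 68 treated and 54 control cells, held 236 and 78.3 CPM of Trdc (3.02) and 999 and 563 CPM of Trbc1 (1.77), which made 2 of 7 members, where 3.48% of 2612 genes were higher and 8.12% lower. Their Trdc UMIs lay in few cells, 8 treated and 4 control, of which the 7 treated cells and 1 control cell with at least 5 UMIs held 97.7% and 83.3%.

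NK cells showed small ratios. None of the 10 members reached 1.5-fold, where 2.24% of 9271 genes were higher and 3.00% lower. Trbc2 stood at 1.38 (1.28 to 1.5), Trbc1 at 1.11 (1.06 to 1.16) and the gamma and delta constants at 1.13 (1.01 to 1.27), while Cd3g was at 0.849. Trdc alone was at 1.12 (0.980 to 1.29), an interval that includes 1, so in NK cells the beta constants were slightly higher in treated. The Cd3g ratio rested on a low signal, found in 9.35% of treated and 13.8% of control NK cells. Its 54.8 and 64.5 CPM lay under the 63.6 and 88.9 CPM of the monocyte/macrophage gate, where the ratio was 0.716.

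**Figure D5:**
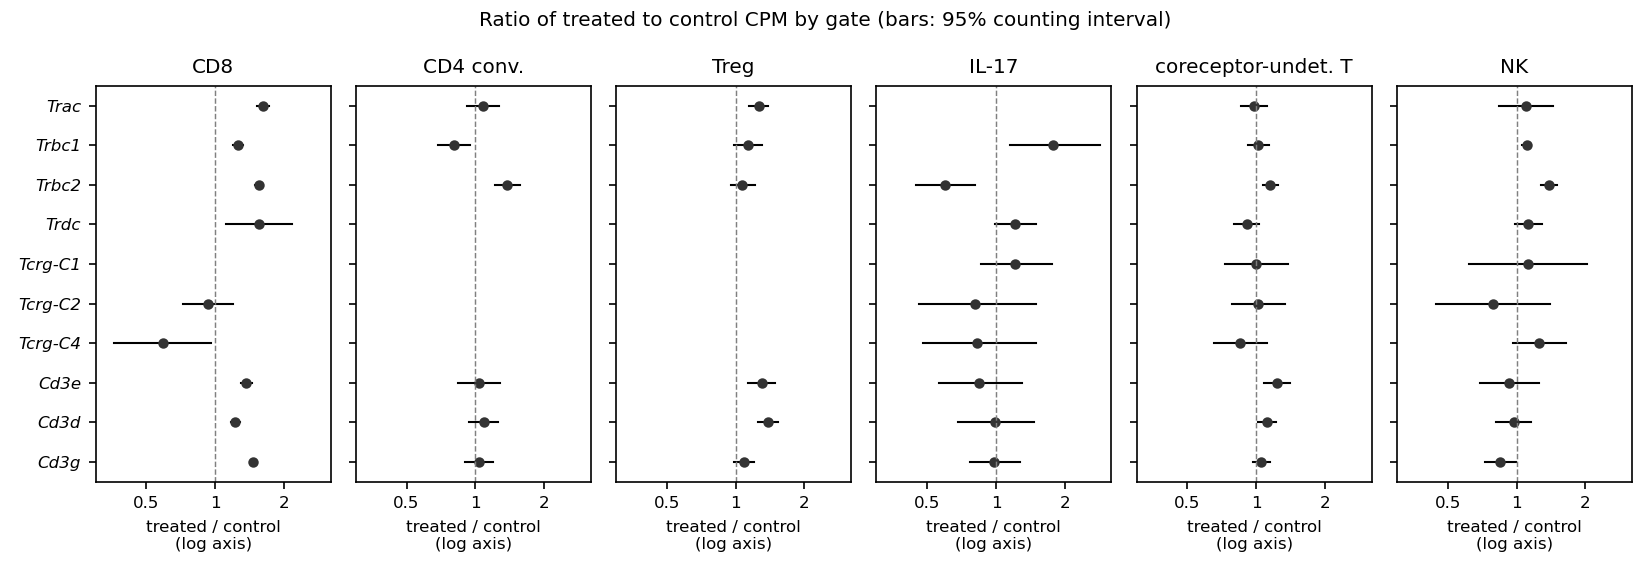
Ratio of treated to control CPM for the genes with at least 50 UMIs over both libraries in a gate, on a logarithmic axis, with bars for the 95% counting interval and a dashed line at 1. In CD8 T cells Trac (1.62), Trbc2 (1.55) and Cd3g (1.47) lie to the right of 1, whereas in the IL-17 gate Trbc2 (0.598) lies to the left and in NK cells every gene lies within 1.5-fold.

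Genes of the receptor signalling pathway outside the members had a smaller median ratio than the members, though some single genes exceeded most members. Of 25 such genes in T-gated cells, 16 were above and 9 below a ratio of 1. Their median log2 ratio was 0.11, against -0.09 over all genes and 0.36 over the members. Within the CD8 gate 21 of 23 measured genes were above 1, with a median log2 ratio of 0.26 against -0.06 over all genes and 0.46 over the members. Past 1.5-fold in T-gated cells were Themis (129 treated and 67.1 control CPM, 1.92), a regulator of T cell receptor signalling, the CD8 coreceptor genes Cd8b1 (1.85) and Cd8a (1.63), the adaptor Lat (196 and 129 CPM, 1.52) and, downward, the coreceptor Cd4 (0.594), so 4 up and 1 down, where 1.80% and 7.39% of all genes were. The T cell surface receptors Cd6 (0.744) and Cd5 (0.810) were the next lowest, and Cd247, the zeta chain, was at 1.20 (159 and 133 CPM). Cd4, Cd8a, Cd8b1, Cd5, Cd6, Cd28 and Trat1 were also used to set the gates.

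Of 3 signalling adaptors of NK receptors, 2 were much higher in NK cells than in T-gated cells. Their levels in the myeloid and other gates were not compared. Fcer1g, the Fc receptor gamma chain, held 2015 treated and 1769 control CPM in NK cells, and 133 and 184 CPM in T-gated cells, a ratio of 0.722. Tyrobp (DAP12), which pairs with activating NK receptors, held 2036 and 1705 CPM in NK cells, and 50.5 and 87.1 CPM in T-gated cells, a ratio of 0.580. Cd247 held 69.7 and 54.9 CPM in NK cells. Hcst (DAP10), the other adaptor, was lower in NK cells than in T-gated cells. It held 367 treated and 253 control CPM in NK cells and 518 and 321 CPM in T-gated cells, a ratio of 1.61. NK cells thus held Fcer1g and Tyrobp at high level beside low Cd3e, Cd3d and Cd3g.

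Genes with a pattern like the members were sought over 19 gate and library combinations of at least 50 cells, T, NK and background gates included, among 8344 genes. The IL-17 gate, where Trdc and Tcrg-C1 peaked, had too few cells to be included. The sum of the CD3 genes correlated highest with Bcl11b (Pearson r = 0.979), a T cell transcription factor and also a gate gene, then with Lat (0.964), Klk8 (0.963), Ubash3a (0.959) and Cxcr6 (0.956). Trac followed the CD3 sum closely (0.977), Trbc2 less (0.935), Trbc1 still less (0.810) and Trdc weakly (0.360). For Trdc the highest were Cd7 (0.885), Cd160 (0.850), Klra6 (0.844), Slc14a1 (0.839) and Crtam (0.831), and among the members Tcrg-C4 (0.937) and Tcrg-C1 (0.900) were nearer to it than Tcrg-C2 (0.773). For Trbc1, added after its NK levels had been seen, they were Skap1 (0.982), Lck (0.975), Zap70 (0.972), Prkcq (0.970) and Ms4a4b (0.966). The points share libraries, depth and gate genes, and the coefficients are descriptions.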

How the data were processed

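Per the file headers, the deposited files hold UMI counts per gene and barcode written by Cell Ranger 6.1.2. Named without a role, per the submitters' processing notes, were mm10 as genome build, R 3.5.3 and Seurat 3.0. The reference is based on another strain than BALB/c, and its effect on these genes was not tested. Barcodes were kept from 200 genes upward and up to 20% mitochondrial UMIs. Gates used marker UMIs and no member gene (1 marker of the IL-17 gate is not reported here), and cells passing a B, myeloid, dendritic, neutrophil or erythroid gate were left out of T and NK gates. No doublet caller was run, and leaving out the 10% deepest cells was an alternative. UMIs were summed per gate and library and scaled to CPM by the gate total, with exact Poisson intervals for CPM, conditional binomial intervals for ratios and Clopper-Pearson intervals for shares. A count of 0 was given the limit of 3 counts. Detection was also computed after thinning cells to 1000 UMIs. A ratio counted from 1.5-fold with at least 50 UMIs. Named genes outside the members were the 5 whose log2(CPM + 10) correlated best over gates of at least 50 cells, among genes with at least 500 UMIs, and in the signalling lists Cd247, Fcer1g, Tyrobp and the 3 highest and 3 lowest. Lat as a signalling gene, the Trbc1 pattern and NK cells without CD3 or Trac were chosen after values were seen. The members and lists were chosen with earlier results of these data known. Coding sequences came from GENCODE vM21 and promoters from RefSeq. Python 3.11.15, numpy 2.4.6, scipy 1.17.1, pandas 2.3.3, matplotlib 3.10.9 and biopython 1.88 were used, and the scripts were tested on simulated data.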

Additional observations from a re-analysis of the deposited data

Results flagged for a closer look

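Over the 5 T gates and the NK gate, 3 members had a treated to control ratio with a counting interval above 1 in some gates and below 1 in another. The difference between gates was not tested. How many of all genes did the same was not counted, so this is not shown to be particular to the members. Trbc1 was above 1 in CD8 T cells (1.26), IL-17-gated cells (1.77) and NK cells (1.11) and below 1 in CD4 conventional T cells (0.808). Trbc2 was above 1 in CD8 T cells (1.55), CD4 conventional T cells (1.38), T cells with no detected coreceptor (1.15) and NK cells (1.38) and below 1 in IL-17-gated cells (0.598). Cd3g was above 1 in CD8 T cells (1.47) and below 1 in NK cells (0.849), where its level lay under that of the monocyte/macrophage gate in both libraries.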

How the results depend on the processing

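Of 70 alternative values of the summed ratios and shares, 27 lay outside the counting interval of the reported value. Requiring 2 UMIs per gate marker gave a CD3 ratio over T gates of 1.23 and gamma-delta shares of 6.16% treated and 5.07% control. Scaling each cell alike gave 1.34 for CD3, 1.36 for alpha-beta and 1.72 for gamma-delta, with shares of 6.76% and 5.44%. Thinning to 1000 UMIs gave 1.35, 1.37 and shares of 8.33% and 7.24%, and 11.1% in treated NK cells. Without the 10% deepest cells alpha-beta was 1.29, and the control NK share 11.9%. The alternatives after this were chosen after seeing the data. Same gate weights gave 1.25 for CD3, 1.29 for alpha-beta, 1.00 for gamma-delta, a treated share of 7.13% and put Tcrg-C2 (0.905) and Tcrg-C4 (0.793) on the other side of 1, as 2 UMIs per marker did for Tcrg-C4 (0.868). Without Gzmk CD8 and Trbv13-1 cells the ratios were 1.13, 1.17 and 2.01 and the treated share 12.9%. T-gated cells with a CD3 UMI gave 1.25 and 1.30. NK cells with no CD3 or Trac UMI gave shares of 8.21% treated and 8.52% control. No paired analysis was possible because each group holds 1 library. Depth limits the IL-17 gate, with 35 treated and 16 control cells.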
